A study of Homo sapiens with 6 samples.

Results

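The genes described here encode the proteins of the cytosolic ribosome. They were taken by symbol: protein-coding genes named RPL or RPS with a number and at most an A, X or L suffix, plus RPLP0, RPLP1, RPLP2 and RPSA, without the RPS6K kinases, RPS4Y and readthrough genes. Of the 58884 genes in the table, 81 met this rule, 32 of the small (40S) subunit and 49 of the large (60S) subunit, on 21 chromosomes. The study measured transcripts by RNA sequencing (the labels give total RNA, and no selection step) in 3 established human thyroid cancer cell lines, BHT-101, FTC-133 and 8505C. CRABP2, a cytosolic carrier that delivers retinoic acid to its nuclear receptor, was lowered in BHT-101 and FTC-133 by a specific siRNA (siCRABP2, against siControl) and raised in 8505C by an expression vector (CRABP2 vector, against the empty vector). Each of these 6 groups holds 1 library and differences within a line are unreplicated, and the labels give neither the time after transfection nor whether the vector cells were pools or clones.

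A ribosome holds 1 copy of nearly every ribosomal protein, and the small subunit reads the mRNA while the large subunit joins the amino acids. Ribosomal protein mRNAs are among the most abundant of growing cells, are short, and often begin with a C followed by a run of pyrimidines. This 5′ terminal oligopyrimidine (TOP) start lets the mTOR pathway and the RNA-binding protein LARP1 adjust their translation together. Several members have paralogs with a restricted pattern, such as RPL3L in heart and skeletal muscle and RPL10L in testis.

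The start sites show what the members share beyond their names. RefSeq (GRCh38.p14) listed promoters for 64 of the 81 genes, 79 in all, and the motif searched was a C at the start followed by 4 or more C or T bases on the gene's own strand. It stood at 1 or more listed starts of 46 of 64 members (71.9%), against 6.24% of 15843 protein-coding genes, or 58.2% of the members' promoters against 4.54% of 22199. Both subunits were alike in this, with 18 of 25 small and 28 of 39 large subunit genes. Of the genes of the mitochondrial ribosome, a separate machine, 6 of 69 had it, and of the translation factors listed here as TOP mRNAs 16 of 18 did. The box TATAAA, 40 to 16 bases before the start, was found for 3 of 64 members (4.69%) and 4.19% of all protein-coding genes. The lines below run from 15 bases before to 15 bases from the start, on the gene's strand, with the pyrimidine run that begins at the start in capitals, as far as it lies in the window. The first 8 have the motif and are the most abundant members, RPS12 and RPL13A, and 6 further members whose levels are described below.

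RPS12, chr6:132814554-132814583, plus strand: gcgtgcggatgaggcCTCTTTCCCTgccgc

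RPL13A, chr19:49487593-49487622, plus strand: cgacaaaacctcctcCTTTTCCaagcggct

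RPL41, chr12:56116618-56116647, plus strand: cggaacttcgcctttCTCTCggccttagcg

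RPL34, chr4:108620561-108620590, plus strand: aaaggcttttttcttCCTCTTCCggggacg

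RPL12, chr9:127451392-127451421, minus strand: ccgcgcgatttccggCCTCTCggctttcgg

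RPL39, chrX:119791616-119791645, minus strand: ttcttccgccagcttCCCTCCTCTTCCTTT

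RPS19, chr19:41860240-41860269, plus strand: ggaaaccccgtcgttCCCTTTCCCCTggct

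RPL22, chr1:6199581-6199610, minus strand: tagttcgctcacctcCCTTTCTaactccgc

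The next 4 have no such run at the listed start: RPS26 and RPS28, described below for their levels, and the paralogs RPL10L and RPS27L.

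RPS26, chr12:56041903-56041932, plus strand: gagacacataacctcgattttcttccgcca

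RPS28, chr19:8321481-8321510, plus strand: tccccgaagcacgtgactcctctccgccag

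RPL10L, chr14:46651767-46651796, minus strand: caggcgtagttaagagagcgcattttgact

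RPS27L, chr15:63157463-63157492, minus strand: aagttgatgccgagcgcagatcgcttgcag

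The start that these cells use was not measured, and the absence of the letters at a listed start says nothing more.

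Values are FPKM, fragments per kilobase of exon scaled to the reads of the library, and differences are of log2(FPKM + 1), which understates the change of low genes. The libraries held 22084110 to 27958622 reads, and the median member had 16319 to 39602 reads in a library, so counting error is small for all but the lowest members. CRABP2 itself was at 27.3 and 11.4 FPKM in BHT-101 with siControl and siCRABP2, 8.94 and 0.170 in FTC-133, and 0.607 (empty vector) and 38.0 (CRABP2 vector) in 8505C, in the labelled direction each time. Of 7 thyroid markers listed, TG and SLC5A5 were at or under 0.05 FPKM in all 6 libraries, and PAX8 passed 1 FPKM only in FTC-133 (12.3 and 13.0). NKX2-1 reached 1 FPKM in 1 or both libraries of FTC-133 and of 8505C, where no other of the 7 did. In BHT-101 none of the 7 did. The mitochondrial genome took 19.4% and 17.2% of summed FPKM in BHT-101, 14.1% and 10.8% in FTC-133, and 11.3% and 7.01% in 8505C, so it was lower in the perturbed library of each line. Its part in the values below was not tested, beyond the shares given without it.

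The members held a large share of expression in every library. They made up 14.3% and 14.4% of summed FPKM in BHT-101 with siControl and siCRABP2, 9.37% and 10.3% in FTC-133, and 10.1% (empty vector) and 12.7% (CRABP2 vector) in 8505C. BHT-101 was thus highest and nearly level between its libraries, and the 8505C pair was the furthest apart. Without the mitochondrial genome in the total, the shares were 17.7% and 17.3%, 10.9% and 11.5%, and 11.4% and 13.7%, in the same order of libraries. The large subunit held the greater part throughout, for example 8.11% against 6.18% in BHT-101 siControl. Among the 100 genes with the highest FPKM, 49 and 47 were members in BHT-101, 34 and 33 in FTC-133, and 33 and 39 in 8505C.

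**Figure D1:**
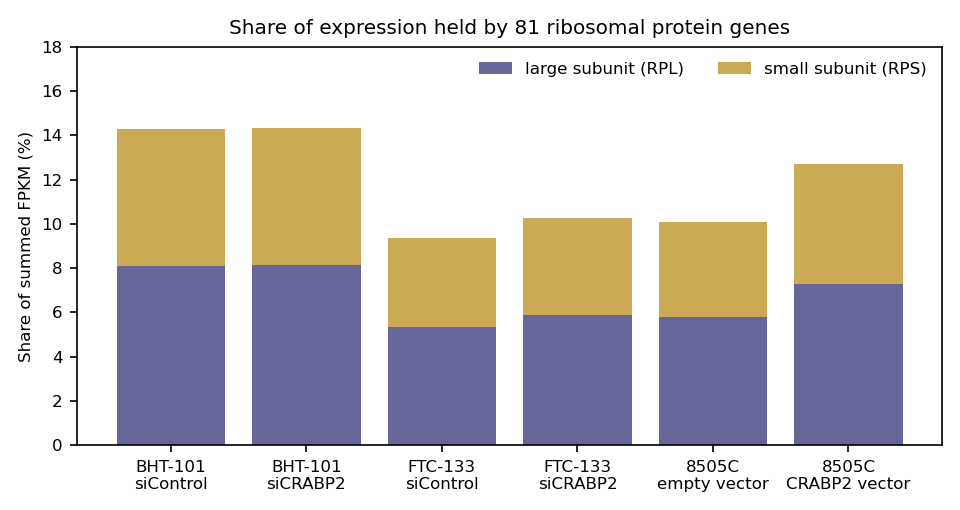
Share of summed FPKM (y axis, percent) held by the 81 members in each of the 6 libraries (x axis), split into large and small subunit genes. The bars stand at 14.3% and 14.4% in BHT-101, 9.37% and 10.3% in FTC-133, and 10.1% and 12.7% in 8505C, with 1 library per bar.

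Although ribosomes hold most of these proteins in equal numbers, their deposited mRNA levels per exon length differed widely. Member means ran from 0.046 FPKM for the paralog RPL3L, or 1.30 for RPL36A without it, to 2044 for RPS12. The median of the members' mean FPKM was 332, and 60 of 81 were at 100 FPKM or more in every library. The highest were RPS12 (mean 2044), RPL13A (1491), RPL7 (1358), RPS18 (1305) and RPS2 (1257). Among the lowest were RPL3L (0.046), RPL36A (1.30), RPS10 (1.39) and RPL10L (3.74). RPL3L, the muscle paralog of RPL3, stayed under 1 FPKM in all 6 libraries.

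Some low values lay at genes that share exons with another annotated gene. Of 77 members other than the paralogs RPL3L, RPL10L, RPL39L and RPS27L, 9 had from 35.0% to 91.0% of the main transcript inside exons of another gene, and their median level was 24.4 FPKM, with 6 of the 9 under 40. The other 68 had a median of 367, and 1 of them was under 40. The overlapped share was 91.0% for RPL17, 65.3% for RPL26, 41.5% for RPS15A, 37.8% for RPL36A and 35.0% for RPS10. RPL10, at 46.7% overlap, had a mean of 755 FPKM, so a high overlap did not always go with a low level. The readthrough genes that span RPL17, RPL36A and RPS10 were at 0.237 FPKM or less in every library. The sources used here do not say how the authors counted reads that fall on several genes, and FPKM divides by all annotated exon bases, retained introns included (8626 for RPL14). Levels of different members are therefore compared with this limit. Its part in comparisons of 1 gene across lines was not tested.

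The levels of the members were most alike between libraries of the same line. Across the 81 members, log2 levels of libraries of the same line correlated at 0.995 to 0.999 (Pearson) and those of different lines at 0.926 to 0.970, a description over genes that share each library. Of 79 members with FPKM of at least 1 in 3 or more libraries, 53 were higher in both BHT-101 libraries than in all 4 others (18.3% of all genes were), and 1 was lower in both (27.6%). In 24 members both FTC-133 libraries were the lowest (13.9% of all genes), and in 2 the highest (26.2%). For 8505C these numbers were 25 lowest (32.1%) and 7 highest (26.8%). BHT-101 thus stood above the other lines for most members, while the order of FTC-133 and 8505C depended on the gene.

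**Figure D2:**
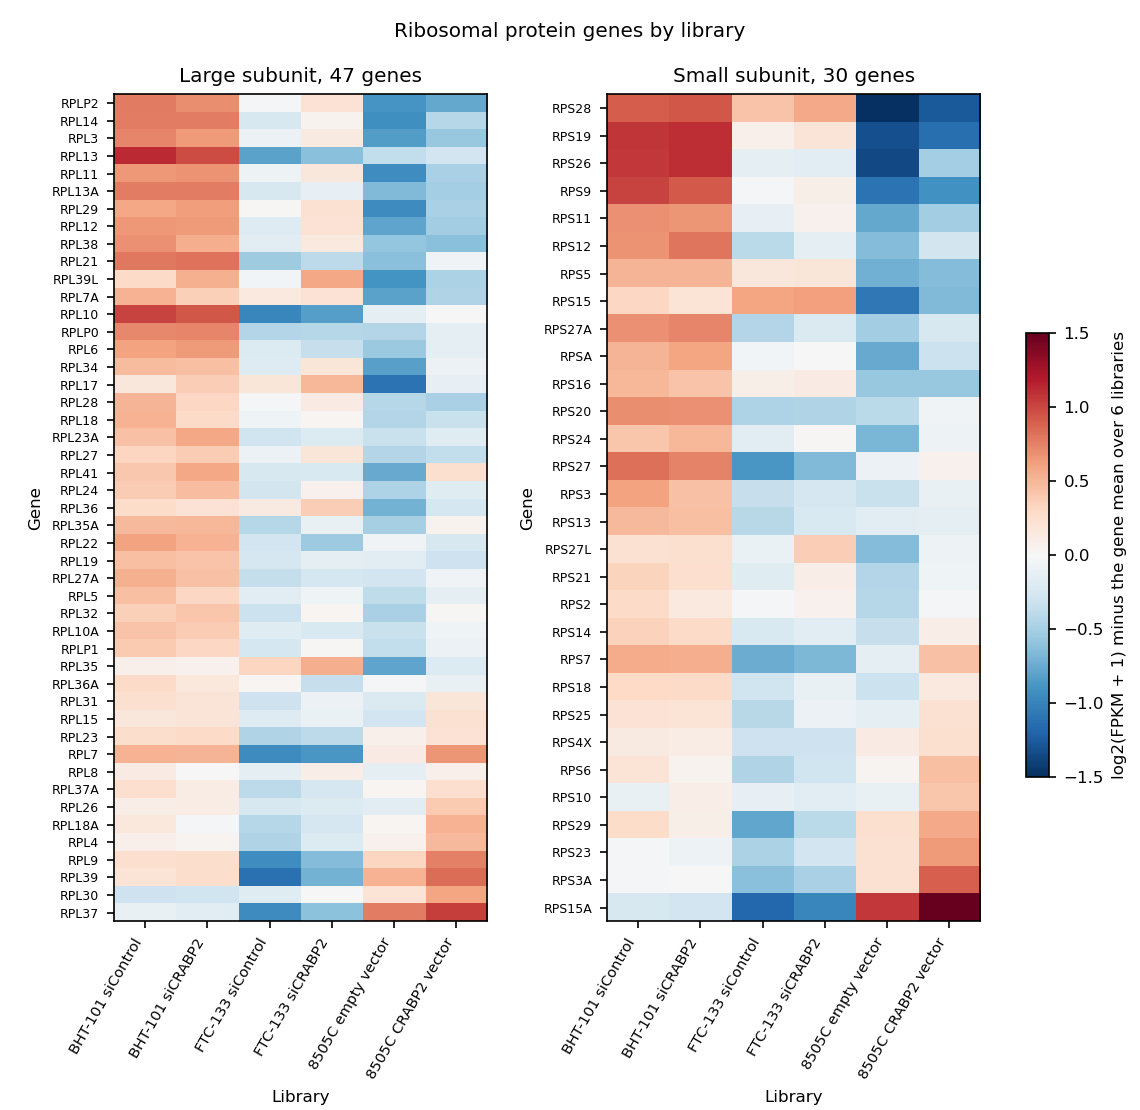
Colour shows log2(FPKM + 1) minus the gene's mean over the 6 libraries, for 77 members (rows, ordered by 8505C minus BHT-101 within each subunit) and 6 libraries (columns). The colour scale ends at 1.5 in each direction. Columns of the same line look alike, most rows are highest in BHT-101, and RPS28 and RPS19 stand opposite RPS15A and RPL37 in 8505C.

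To compare lines, limma was fitted to all genes over the 6 libraries with line and CRABP2 arm as terms, with Benjamini-Hochberg adjustment over all 11628 genes tested and a threshold of 0.05. Each line has 2 libraries that differ in treatment and are not replicates of an untreated line, and 2 residual degrees of freedom remain.

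Against BHT-101, FTC-133 had lower levels of 32 of 79 members and higher levels of none, where 15.2% of all genes were called lower and 26.7% higher. The median difference of the members was -0.54 on the log2 scale, beside 0.17 over all genes. RPL10, a protein of the large subunit that helps complete its active site, was at 1321 and 1256 FPKM in BHT-101 and 332 and 369 in FTC-133. That difference was -1.88 (SE 0.22, limma adjusted p = 0.000801). The values of the lines do not overlap, but RPL10 was named for the size of its difference, so this adds no support. RPL13, another large subunit protein, was at 648 and 585 against 169 and 191 FPKM, a difference of -1.77 (SE 0.20). RPS27, of the small subunit, fell from 1794 and 1697 to 551 and 638 FPKM between these lines (-1.55, SE 0.23). RPL7 was at 1772 and 1755 against 641 and 676 FPKM (-1.42, SE 0.26). Both subunits took part, with 13 of 32 small and 19 of 47 large subunit genes called. Of 25 translation factors listed as TOP mRNAs, 7 were lower and 3 higher, and 9 of 12 host RNAs of small nucleolar RNAs (snoRNAs), which also start with a TOP, were lower. Of 75 mitochondrial ribosomal protein genes, 10 were lower and 14 higher.

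8505C was lower than BHT-101 in 45 of 79 members and higher in 3, where 30.7% of all genes were called lower and 30.5% higher. The members' median was -0.72, beside 0.0047 over all genes. Called lower were 16 of 32 small and 29 of 47 large subunit genes, with medians of -0.61 and -0.73. The 4 most negative differences were nevertheless of small subunit genes. RPS28 was at 410 and 414 FPKM in BHT-101 and 71.7 and 90.5 in 8505C (-2.34, SE 0.21, limma adjusted p = 0.000138). RPS19, the gene most often mutated in Diamond-Blackfan anaemia, was at 592 and 608 against 112 and 128 FPKM (-2.32, SE 0.20). RPS26 was at 409 and 420 against 75.6 and 136 FPKM (-2.02, SE 0.26), and RPS9 at 456 and 429 against 104 and 119.9 (-1.97, SE 0.20). In each of the 4 the lines do not overlap, but they were named for the size of their differences, so this adds no support. RPS28, RPS19 and RPS9 lie on chromosome 19, whose other genes had a median of -0.57 in this contrast. For the line contrasts, the other genes of a chromosome are protein-coding genes with FPKM of at least 5 in 1 or more libraries. RPS26 lies on chromosome 12, where that median was -0.38. The part of the chromosome in these differences was not tested. Members with the opposite difference were RPS15A (1.61, SE 0.22), RPL37 (1.04, SE 0.21) and RPL30 (0.71, SE 0.21). Of the main transcript, 47.1% lies in exons of another gene for RPL30 and 41.5% for RPS15A. The part of this overlap was not tested.

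RPS15A had the largest difference between FTC-133 and 8505C among the 79 members in the fit, which RPL10L, described below, did not enter. Of its main transcript 41.5% lies in exons of another gene, and the part of that overlap in the contrast was not tested. It was at 23.9 and 23.2 FPKM in BHT-101, 11.997 and 13.96 in FTC-133, and 60.7 and 89.99 in 8505C. Between 8505C and FTC-133 the difference was 2.43 (SE 0.22, limma adjusted p = 0.000142). In that contrast 12 members were higher in 8505C (24.2% of all genes) and 18 lower (33.7%), with a median of -0.018 beside -0.12 over all genes. RPL37 (1.68, SE 0.21), RPL39 (1.60, SE 0.24) and RPL9 (1.32, SE 0.23) followed RPS15A, and all are large subunit proteins. RPL39 was at 184 and 245 FPKM in FTC-133 and 578 and 715 in 8505C. On the lower side stood RPS28 (-1.92, SE 0.21), RPS15 (-1.47, SE 0.20), RPS19 (-1.36, SE 0.20) and RPS9 (-1.04, SE 0.20), all 4 on chromosome 19. That chromosome holds 12 members, whose median difference was -0.71 for 8505C minus FTC-133, and the median of its other genes was -0.89. On chromosome 5, which holds RPL37, the other genes had a median of 0.31, and on chromosome 16, which holds RPS15A, 0.09.

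The line contrasts rested on few libraries and on the scaling. Leaving out 1 library of a compared line leaves that line 1 library, so counts from such fits are not given. Fewer genes were called over all genes in each of these fits, and fewer members in most of them. In each such fit the lone library is assumed to vary like the others. With no filter on low values, 9, 23 and 12 of 81 members were called in the 3 contrasts, beside 5606, 7567 and 7563 of 33848 genes. In the main fit 32, 48 and 30 of 79 members were called, beside 4868, 7118 and 6740 of 11628 genes. Rescaling FPKM to the same sum in every library (TPM) moved the median of all genes to 0.33 for FTC-133 minus BHT-101 and 0.33 for 8505C minus BHT-101, size factors and quantile normalization moved the first to 0.014 and 0.041, and the median for 8505C minus FTC-133 went from -0.12 to between 0.021 and 0.067. The members' medians in these contrasts stayed negative under all 3 scalings (-0.35 to -0.74 and -0.19 to -0.73), but for 8505C minus FTC-133 they turned positive (0.16 to 0.27). The split of higher and lower calls among 79 members for 8505C against BHT-101 became 7 and 28 with TPM and 15 and 21 with quantile normalization. In either direction 7328 and 7112 of 11628 genes were called there. For 8505C against FTC-133 the split became 19 and 9 with TPM, 18 and 7 with size factors, and 21 and 11 with quantile normalization. There 6686, 6743 and 6806 genes were called. The split over all genes was not counted under these scalings, so an excess of members in 1 direction cannot be read from them.

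In BHT-101, siCRABP2 left the members close to the siControl library. Of 79 members measured (FPKM of at least 1 in 1 or both libraries), 30 were above and 49 below 0, where 53.3% of all 12055 genes were above, and with TPM scaling 43 were above and 36 below. The median difference was -0.018, beside 0.014 over all genes, and it was 0.0083 with TPM. None differed by 0.32 or more on the log2 scale in either direction, where 5.43% of all genes were that much higher and 4.16% lower. The 95% exact interval of the ratio of reads covers counting error only and compares 2 libraries. It lay above 0 for 19 members, below for 37 and held 0 for 23. It was computed for the members only. At their read numbers small differences between 2 libraries leave 0 out, so these counts are no result about the members. Among members with at least 5 FPKM in either library, the highest differences were RPL39L (0.25), RPL17 (0.19), RPL41 (0.17) and RPL23A (0.14), and among the lowest were RPL18 (-0.24), RPL28 (-0.20) and RPS29 (-0.19). RPL18, a large subunit protein, was at 304 FPKM with siControl and 258 with siCRABP2.

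In FTC-133, most members were a little higher in the siCRABP2 library. Of 80 measured, 73 were above 0 and 7 below, where 46.1% of all 12832 genes were above and 53.9% below, and with quantile normalization 53 were above and 25 below. The median was 0.16, beside -0.040 over all genes. In this pair 11 members were higher by at least 0.32 (18.3% of all genes) and 2 lower (23.9%), so most differences were small against the spread of other genes. The count of 11 was 7 with TPM or quantile normalization and 16 with size factors. The intervals lay above 0 for 66, below for 5 and held 0 for 9, with the same limit and no count over all genes. RPL39L, the paralog of RPL39 that is prominent in testis, was at 13.5 FPKM with siControl and 21.4 with siCRABP2 (0.63). RPS27L, a paralog of RPS27 and a p53 target, was at 11.6 and 16.4 (0.47). RPL39, which lines the exit tunnel of the ribosome, was at 184 and 245 (0.41), and RPL12, of the ribosome stalk base, at 549 and 729.8 (0.41). On the lower side, RPL22 was at 38.7 and 32.3 FPKM (-0.26), RPL6 at 317 and 289 (-0.13) and RPL10A at 481 and 465 (-0.05). The higher side therefore holds both abundant members and rare paralogs.

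In 8505C, the library with the CRABP2 vector had higher levels of nearly all members. Of 79 measured, 74 were above 0 and 5 below, where 52.8% of all 11731 genes were above, and the median was 0.35, beside 0.024 over all genes. Higher by at least 0.32 were 42 (19.7% of all genes), and none was that much lower (16.1%). On the log2(FPKM + 1) scale no measured member differed by 1 or more in any of the 3 lines, although the FPKM of RPL17 itself was 2.19-fold higher in 8505C. On the same scale, 0.589% of all genes were higher by 1 or more and 0.539% lower in BHT-101, 2.36% and 2.35% in FTC-133, and 1.85% and 1.86% in 8505C. All 32 small subunit genes were above 0, with a median of 0.36, and 42 of 47 large subunit genes were, with a median of 0.30. The intervals lay above 0 for 72, below for 3 and held 0 for 4, again for the members only and without a count over all genes.

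RPL41, which encodes a peptide of the large subunit that is the shortest of the ribosome, had the largest difference, 0.99, with 603 FPKM (empty vector) and 1202 (CRABP2 vector). RPL17, at the exit of the tunnel, was at 4.60 and 10.1 (0.99), on 259 and 549 reads and with most of its transcript shared with another gene. RPS26, which lies at the mRNA exit of the small subunit, was at 75.6 and 136 (0.84), and RPL34 at 93.5 and 155 (0.73). RPS26 and RPL41 are neighbours on chromosome 12, 71889 bases apart. Within 500000 bases of the pair lay 22 other measured protein-coding genes that also had FPKM of at least 5 in 1 or more of the 6 libraries. Their median difference was 0.33, with 18 above 0. In FTC-133 both genes were nearly level, at 176 and 174 FPKM for RPS26 and 859.8 and 864 for RPL41.

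The 5 members below 0 in 8505C were RPL22, RPL19, RPL28, RPL38 and RPL36A. RPL22, an RNA-binding protein of the large subunit that cells can do without, was at 45.7 FPKM (empty vector) and 39.9 (CRABP2 vector), a difference of -0.19. RPL19, which bridges the subunits, was at 735 and 658 (-0.16), RPL28 at 78.6 and 75.1 (-0.06), RPL38 at 56.9 and 54.9 (-0.05), and RPL36A, under 2 FPKM, at 1.26 and 1.11 (-0.10). RPL19 and RPL38 lie on chromosome 17, where the other genes had the lowest median of the chromosomes with members (-0.17). Other genes are here protein-coding genes with FPKM of at least 5 in either library of the line. On chromosome 18, which holds RPL17, that median was 0.43. Across 69 members with a mean of at least 50 FPKM, the difference in 8505C correlated with the median of the other genes of the same chromosome at 0.40 (Pearson), in BHT-101 at 0.40 and in FTC-133 at 0.23. These are descriptions over genes that share 2 libraries.

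**Figure D3:**
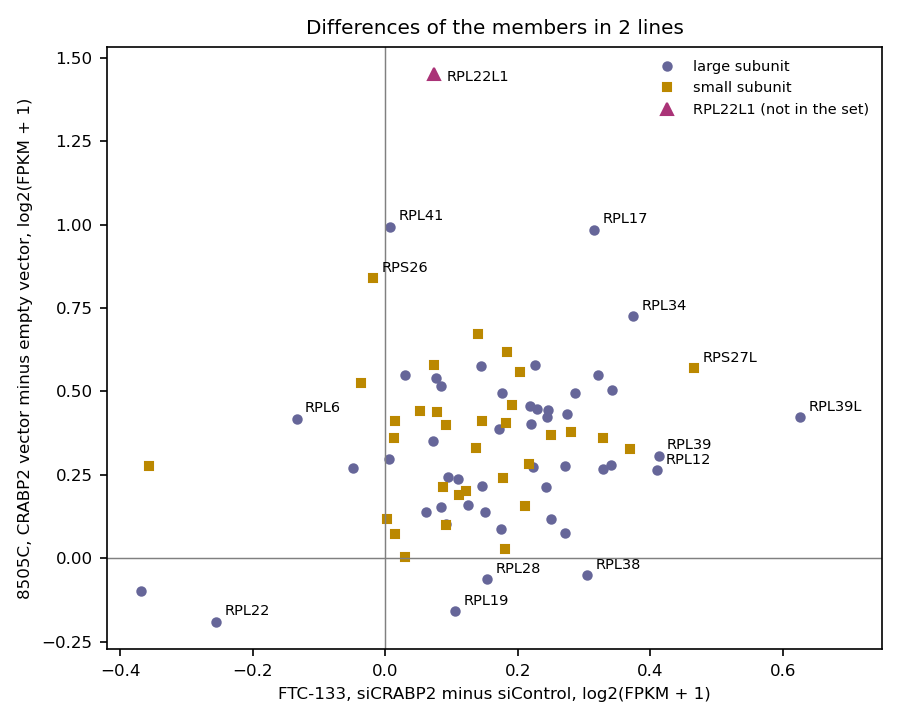
Difference of log2(FPKM + 1) in FTC-133 (x axis, siCRABP2 minus siControl) and in 8505C (y axis, CRABP2 vector minus empty vector) for 79 members and RPL22L1, with 1 point per gene. Most points lie above 0 on both axes, RPL41 and RPS26 are high on the y axis alone, and RPL22 is below 0 on both. Quantile normalization left 53 members above 0 on the x axis and 65 on the y axis.

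Higher by at least 0.32 in both FTC-133 and 8505C were 6 genes, 54.5% of the 11 in FTC-133 and 14.3% of the 42 in 8505C. Of the 11, RPL10L was at 0 in both 8505C libraries and could not pass there. Over all genes, 18.3% were that much higher in FTC-133 and 19.7% in 8505C, and the share higher in both was not counted. Since 42 of all 79 members measured in 8505C passed, the overlap says little about the 6 themselves. The 6 were RPL32, RPL34, RPL39L, RPS25, RPS27L and RPS29, named after their values were seen. Over 79 members, differences in FTC-133 and 8505C correlated at 0.23 (Pearson), those in BHT-101 and 8505C at 0.47, and those in BHT-101 and FTC-133 at 0.14. Most members were thus above 0 both in the FTC-133 pair, where the second library has lower CRABP2, and in the 8505C pair, where it has higher CRABP2.

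The fits over lines called no member. For siCRABP2 against siControl over the 4 siRNA libraries, with the line as a block and 1 residual degree of freedom, limma called 0 of 80 members and 0 of 12953 genes. At an unadjusted p under 0.05 there was 1 member, RPL39L (0.44, SE 0.17, adjusted p = 0.869), and 4.16% of all genes. The median over members was 0.076, beside -0.011 over all genes, with 62 of 80 above 0. By line, 30 of 79 were above 0 in BHT-101 and 73 of 80 in FTC-133. For the arm with lower CRABP2 (siCRABP2 and empty vector) against the higher arm over all 6 libraries, limma called 0 of 79 members and 0 of 11628 genes, and at an unadjusted p under 0.05 there were 0 members and 3.2% of all genes. The median over members in that fit was -0.072, beside -0.017 over all genes, with 66 of 79 below 0. The lines did not share this direction. With lower CRABP2, 73 of 80 members were higher in FTC-133, and 74 of 79 were lower in 8505C.

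Other genes showed shifts of similar size in 8505C. The 78 mitochondrial ribosomal proteins, whose genes are nuclear, had a median difference of 0.36 there, with 69 of 75 measured above 0 and 43 higher by at least 0.32. Their medians were 0.10 in BHT-101 and 0.083 in FTC-133. MRPL1 went from 38.1 to 67.8 FPKM in 8505C (0.82) and MRPL39 from 28.6 to 49.8 (0.78). The members resemble in length and level a small set of other nuclear genes, the 29 with at least 100 FPKM in every library and a main transcript under 1000 bases. These had medians of 0.030 in BHT-101, 0.27 in FTC-133 and 0.29 in 8505C, against -0.018, 0.16 and 0.35 for the members. The part that transcript length and abundance have in the members' differences was not tested. Across the members themselves, the correlation of the difference with log2 main transcript length was weak (Pearson -0.14, -0.083 and -0.019 in BHT-101, FTC-133 and 8505C over 69 members).

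The lists around the ribosome differed in how far they followed the members. Host RNAs of snoRNAs, which carry the guides for rRNA modification in their introns, were below 0 for 12 of 12 in BHT-101 (median -0.12), above for 12 of 13 in FTC-133 (0.34) and above for 10 of 12 in 8505C (0.44). GAS5 was at 109 and 93.6 FPKM in BHT-101, 30.5 and 53.6 in FTC-133 and 106 and 131 in 8505C. Assembly factors, which build the subunits in the nucleolus, had medians of -0.00048, 0.012 and 0.26, with 47 of 53 above 0 in 8505C, among them GNL3 (45.1 and 72.6 FPKM) and NOP10 (89.98 and 147). RNA polymerase I and rDNA factors had medians of 0.027, 0.042 and 0.15. Translation factors listed as TOP mRNAs had medians of -0.052, 0.014 and 0.12, and other initiation factors 0.048, -0.023 and 0.12. In BHT-101, 7 of 25 of the former and 15 of 20 of the latter were above 0. Within the members, those with the TOP motif at a listed start had medians of -0.026, 0.18 and 0.33 in BHT-101, FTC-133 and 8505C, and those without it 0.0084, 0.18 and 0.42. None of the lists had a gene past the threshold of the siRNA or arm fit.

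**Figure D4:**
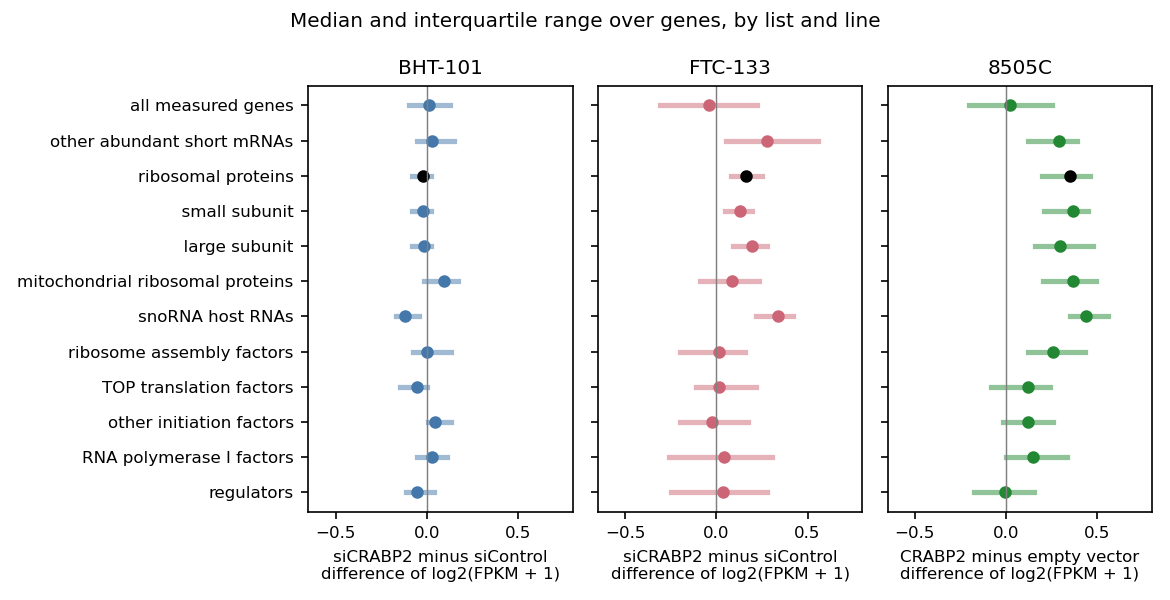
Median (point) and interquartile range over genes (bar) of the difference of log2(FPKM + 1) between the 2 libraries of each line, by list, with the members in black. The members lie at -0.018 in BHT-101 (0.0083 with TPM), 0.16 in FTC-133 and 0.35 in 8505C, where the mitochondrial ribosomal proteins lie at 0.36. The bars are spread over genes and no error between replicates.

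Paralogs and their partners had different orders of the lines. RPL10L, an intronless copy of RPL10 on chromosome 14, was listed at 0 in both BHT-101 and both 8505C libraries and at 9.53 and 12.9 FPKM in FTC-133, on 192 and 285 reads. RPL10, its partner, was lowest in FTC-133 and highest in BHT-101, where RPL10L had no read. RPL39L stood at 3.74% and 4.32% of RPL39 in BHT-101, 7.36% and 8.75% in FTC-133, and 1.22% and 1.37% in 8505C. RPS27L stood between 0.793% and 2.56% of RPS27, highest in FTC-133 siCRABP2. RPS4X, whose Y-linked copy is outside the rule, was at 571 and 561 FPKM in BHT-101, 419 and 419 in FTC-133 and 568 and 616 in 8505C.

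RPL22L1, the paralog of RPL22, is outside the rule for members but had a larger difference in 8505C than any of them. It was at 17.5 and 19.1 FPKM in BHT-101, 19.9 and 21.0 in FTC-133, and 12.9 and 37.0 in 8505C (1.45), where RPL22 went from 45.7 to 39.9. As a share of RPL22 it was 24.2% and 27.9% in BHT-101, 51.4% and 65.1% in FTC-133, and 28.2% and 92.7% in 8505C. The ratio was thus higher in the perturbed library of every pair, with 1 library each and no test. It is known that the RPL22 protein can bind the RPL22L1 transcript and lower its level. The other 5 genes outside the rule, among them RPL7L1, RPL26L1, RPL36AL and FAU, were also above 0 in 8505C, for example FAU, which encodes the small subunit protein eS30, at 144 and 187 FPKM. With all 6 added to the members the medians were -0.014, 0.16 and 0.36.

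**Figure D5:**
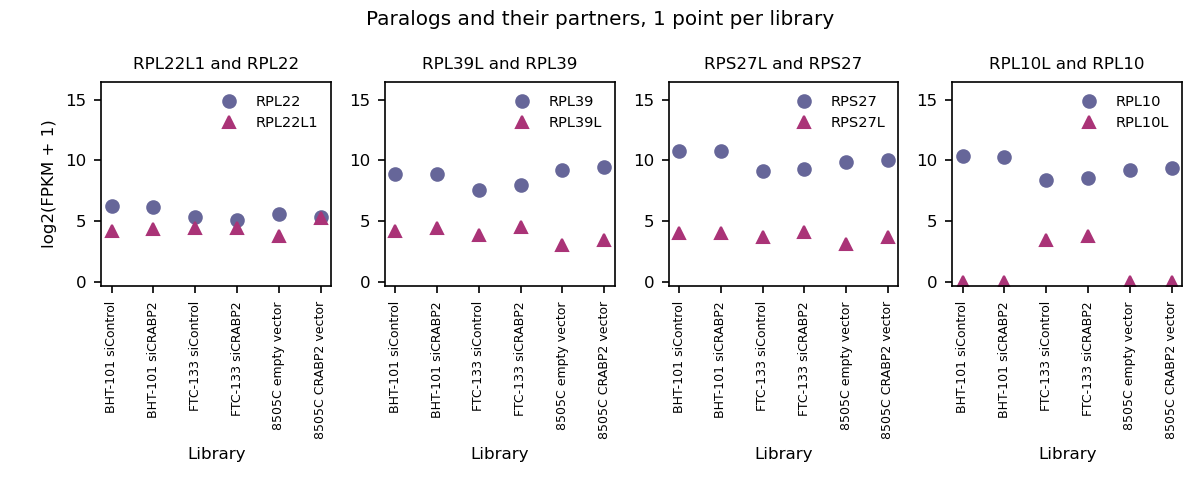
Levels of 4 paralogs (triangles) and their partners (circles) on the log2(FPKM + 1) scale (y axis), 1 point per library (x axis). RPL22L1 comes to 92.7% of RPL22 in the 8505C library with the CRABP2 vector, and RPL10L is above 0 in the FTC-133 libraries alone.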

How the data were processed

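The table deposited by the authors holds FPKM values for 6 libraries. Per the submitters' processing notes, FastQC, Trimmomatic 0.38 and featureCounts 2.0.0 were used on GRCh38. The aligner, the annotation release, strand use and the handling of reads on several genes are not given in those notes or the labels, which leaves antisense and overlapping genes and near-identical copies uncertain. Names and positions came from GENCODE release 29. Total reads were recovered from the steps of the FPKM values. At a tolerance of 0.001 reads, 75.2% of 33700 genes came out whole in all libraries. For 39 of the 81 members the length was found by search.

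Differences are of log2(FPKM + 1). A gene was measured in a line at FPKM of at least 1 in 1 or both libraries. With a variance trend, limma 3.58.1 under R 4.3.3 was fitted on all genes with FPKM of at least 1 in 2 or more of 4, or 3 or more of 6, libraries, and checked on simulated data. Intervals are 95% exact (Clopper-Pearson). Nothing says that libraries came from separate cultures.

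Libraries were paired by the cell line in the labels. Deviations from arm means correlated at 0.939 (BHT-101), 0.862 (FTC-133) and 0.911 (8505C) over 11628 genes. Genes were named by rule: the 5 highest and 5 lowest members, the 4 largest differences per direction in each line (FPKM of at least 5) and line contrast, the 3 smallest p per direction in the other fits, paralogs and partners, and up to 3 genes of each other list. RPL36A and the 6 genes shared by 2 lines were added, and a few genes that the rule names are not reported here. The members and lists were chosen with earlier results of these data known. Lists other than the members are mitochondrial ribosomal proteins, ribosomal protein pseudogenes, 6 genes outside the rule, TOP translation factors, other initiation factors, assembly factors, RNA polymerase I factors, regulators, snoRNA hosts, chaperones and surveillance, thyroid, epithelial and other cell type markers. Alternatives were pseudocount, filter, scaling (TPM, median-of-ratios size factors, quantile normalization), member list, variance trend, block, arm term and leaving out libraries or lines.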

Additional observations from a re-analysis of the deposited data

Results flagged for a closer look

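The median difference of the members between siCRABP2 and siControl had opposite signs in the 2 knockdown lines, -0.018 in BHT-101 over 79 members and 0.16 in FTC-133 over 80. Each line has 1 library per group, so the difference between the lines was not tested. TPM scaling gave 0.0083 (BHT-101) and 0.14 (FTC-133), the same sign in both. CRABP2 itself had 826 reads with siControl against 276 with siCRABP2 in the former line, and 240 against 5 in the latter.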

How the results depend on the processing

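The members' median changed sign under 1 alternative, in BHT-101 with TPM scaling (0.0083). It moved by more than 0.1 under 1 other, in FTC-133 with quantile normalization, from 0.16 to 0.055. In 8505C it ranged from 0.27 to 0.36. Leaving out the 9 members that share much of their transcript, an alternative chosen after seeing the data, gave -0.023, 0.17 and 0.33. Members called between lines without a filter were 9 for FTC-133 against BHT-101, 23 for 8505C against BHT-101 and 12 for 8505C against FTC-133, and leaving out 1 library gave 2 to 27, 10 to 56 and 16 to 34. The siRNA and arm fits called 0 members under every alternative run, also without the cell line as a block (no pairing), where the count was 0. The share of expression depends on its total: without the mitochondrial genome it was 17.7%, 17.3%, 10.9%, 11.5%, 11.4% and 13.7% in the order of libraries used above, over protein-coding genes 15.4%, 15.4%, 10.1%, 11.1%, 10.8% and 13.5%, and as a share of reads 12.9%, 12.6%, 7.41%, 8.24%, 7.34% and 9.30%. Depth limits the lowest members, RPL3L and, outside FTC-133, RPL10L.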

Other observations

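Regulators of ribosomal protein genes had medians of -0.053 in BHT-101, 0.036 in FTC-133 and -0.0078 in 8505C over 20 genes. MYC, a transcription factor that drives ribosome production, was at 110 and 104 FPKM in BHT-101, 5.25 and 7.84 in FTC-133 and 19.1 and 36.2 in 8505C. EIF4EBP1, a repressor of cap-dependent translation, was at 172 and 272 FPKM in FTC-133 and at 153 and 154 in 8505C.

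Of the genes for ribosomal protein chaperones and surveillance, HUWE1, a ubiquitin ligase that marks unassembled ribosomal proteins, was at 38.4 FPKM (empty vector) and 14.5 (CRABP2 vector) in 8505C (-1.35), and at 9.42 to 12.5 in the other 4 libraries. The list as a whole had medians of 0.051, 0.025 and -0.011 over 13 genes. Named ribosomal protein pseudogenes numbered 1132, of which 51 to 73 per library reached 1 FPKM. Their share of summed FPKM was 0.168% and 0.183% in BHT-101, 0.122% and 0.118% in FTC-133, and 0.242% and 0.326% in 8505C, and their medians were 0.019, 0.048 and 0.41. Reads of near-identical copies cannot be told apart from those of the parent genes here. Of 5 epithelial markers listed, all were measured in BHT-101, EPCAM, KRT8 and KRT18 in FTC-133, and KRT8 and KRT18 in 8505C. Among these markers, KRT19 was at 328 and 350 FPKM in BHT-101 and under 1 in the other lines. Of 10 markers listed for other cell types, 1 was measured in each line: PECAM1 in BHT-101, CALCA in FTC-133 and GFAP in 8505C. CALCA, a marker of thyroid C cells, was at 5.74 and 3.91 in FTC-133 and at or near 0 elsewhere.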
